A study of Arabidopsis thaliana with 20 samples.

Results

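LSM1A, AT2G45810 and AT3G58560 encode factors of cytoplasmic mRNA decay. Their own transcripts were followed here after a drug that blocks transcription was added to cold and to warm Arabidopsis cells. They were taken by gene symbol, each has 1 probe set, and they are 3 of the 6962 genes tested. Cells of T87, a suspension culture of the Columbia accession (Col-0), stood at 4 °C in dim light (40 µmol per square metre and second) for 6, 12, 24 or 36 h, or stayed at 22 °C in brighter light (80 µmol per square metre and second). Cordycepin, a nucleoside drug that stops chain growth during RNA synthesis, was then added, and RNA was collected without it and at 4, 8 and 12 h for each cold duration, and at 0, 0.5, 2 and 4 h for the 22 °C series. Each of the 20 combinations has 1 Affymetrix array, so no condition has replicates. The labels name no transgene in these cells, and cold, dimmer light and longer time in culture cannot be told apart. How fully cordycepin stopped transcription in cold or in 22 °C cells was not tested. No series has later arrays without cordycepin, so effects of the drug and of elapsed time cannot be told apart. The question is how the abundance and the persistence of transcripts shift during cold exposure.

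Most plant mRNAs are degraded after the poly(A) tail is shortened, chiefly by the CCR4-NOT deadenylase complex. The LSM1–LSM7 ring then binds the shortened 3′ end, and together with PAT1 and a DEAD-box helicase of the yeast Dhh1 and human DDX6 type it promotes removal of the 5′ cap, after which an exonuclease digests the body of the message. LSM1 is the subunit that sets this cytoplasmic ring apart from the nuclear LSM2–LSM8 ring. In Arabidopsis, LSM1A and LSM1B encode the LSM1 subunit, and the cytoplasmic ring has been linked to cold tolerance. LSM1A (AT1G19120) thus stands for decapping activation, AT2G45810 for the helicase and AT3G58560, a CCR4-like gene, for deadenylation.

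The intensities were normalised between arrays by the authors, so a change given here is relative, and a loss of mRNA as a whole may not be seen in full. The median log2 intensity of all genes tested lay between 7.49 and 7.56 on the 16 cold arrays, whereas at 22 °C it moved by −0.40 over 4 h of cordycepin. Slopes at 22 °C include this move unless they are centred on that median. Genes did not share it evenly, as the median gene slope at 22 °C was −0.05 log2 per h and the slope at the 95th percentile 0.28. Centring therefore does not make the median gene flat. In these bulk samples fewer cells of a type and less RNA per cell cannot be told apart. The photosynthesis genes LHCB4.1 (log2 10.7 to 11.6) and RCA (10.6 to 11.5) were bright on every array, and the root hair gene EXPA7 (3.71 to 4.48) and the stomatal gene FAMA (3.61 to 4.19) did not pass the filter on low values. AUR1, a kinase of cell division, ranged from 6.93 to 9.63, and the other markers listed have no named probe set here.

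LSM1A transcript stayed between 93.2% and 145.6% of its starting intensity under cordycepin in the cold, and at 22 °C it dropped to 37.7% within 4 h. The log2 intensities at 0, 4, 8 and 12 h of cordycepin were 9.29, 9.25, 9.32 and 9.33 after 6 h of cold and 9.06, 9.31, 9.22 and 9.60 after 12 h of cold. They were 9.41, 9.40, 9.31 and 9.62 after 24 h of cold and 9.30, 9.24, 9.31 and 9.43 after 36 h. At 22 °C they were 9.00, 8.67, 8.18 and 7.59 at 0, 0.5, 2 and 4 h. Every cold array was higher than every 22 °C array, the lowest cold value being the 0 h array after 12 h of cold and the highest 22 °C value the array without cordycepin. The decline at 22 °C was visible at 0.5 h, when 79.3% of the starting intensity was left.

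AT2G45810, the DEAD-box helicase gene, showed the same contrast from a lower starting level in the cold. After 6 h of cold its log2 intensities at 0, 4, 8 and 12 h were 8.24, 8.12, 8.30 and 8.11, and after 12 h of cold they were 8.04, 8.27, 8.30 and 8.15. After 24 h of cold they were 8.02, 8.28, 8.32 and 8.34, and after 36 h they were 8.07, 8.10, 8.25 and 8.28. The 22 °C series had 8.55, 8.38, 7.74 and 7.36 at 0, 0.5, 2 and 4 h. The 22 °C arrays therefore spanned the cold ones, with the first 2 above and the last 2 below all 16 cold arrays. At 4 h of cordycepin, 92.0%, 117.7%, 119.2% and 102.3% of the starting intensity was present after 6, 12, 24 and 36 h of cold, against 43.6% at 22 °C.

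AT3G58560, the CCR4-like gene, also stayed up in the cold, and its fall at 22 °C was not yet visible at 0.5 h. Its log2 intensities at 0, 4, 8 and 12 h were 9.06, 9.17, 8.87 and 9.13 after 6 h of cold and 8.91, 9.00, 9.10 and 9.16 after 12 h of cold. They were 8.94, 9.10, 9.16 and 9.36 after 24 h of cold and 9.03, 9.08, 9.40 and 9.33 after 36 h. At 22 °C they were 9.57, 9.60, 9.21 and 8.68. The first 2 of these 22 °C arrays were above all cold arrays, the 2 h array lay within the cold range and the 4 h array below it. At 0.5 h of cordycepin 101.8% of the starting intensity remained at 22 °C for this gene, where AT2G45810 had 88.7%.

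**Figure D1:**
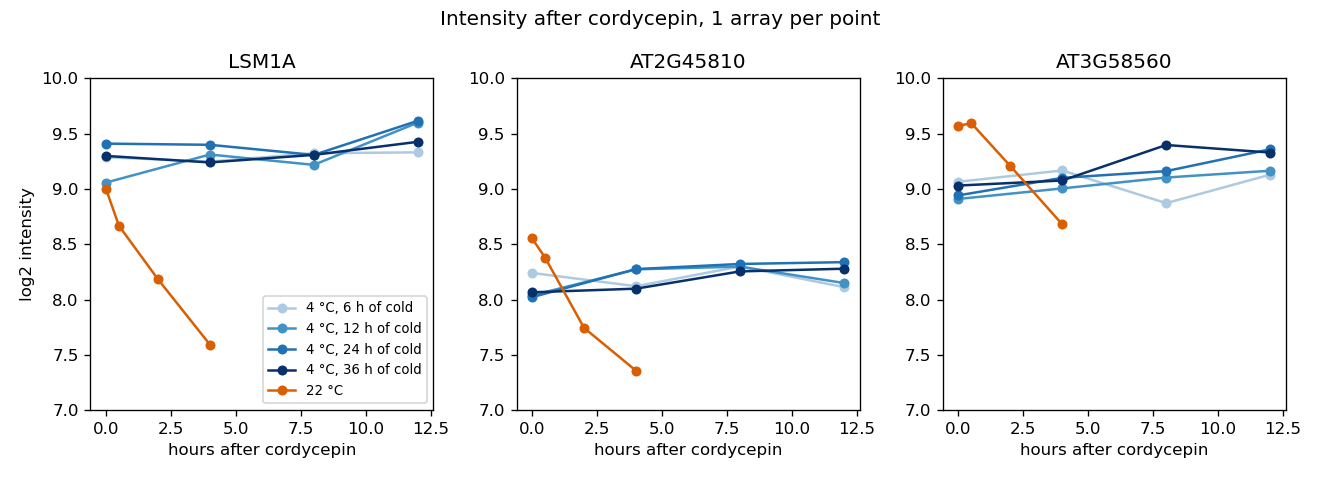
Log2 intensity (vertical axis) against hours after cordycepin (horizontal axis) for LSM1A, AT2G45810 and AT3G58560, with 1 line per series and 1 array per point. The 4 cold lines (blues) stay nearly level or rise to 12 h, by up to log2 0.54 for LSM1A after 12 h of cold. The 22 °C line (orange) falls to log2 7.59, 7.36 and 8.68 at 4 h.

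A straight line per series, fitted to all 20 arrays with limma, put numbers on these courses. The mean of the 4 cold slopes exceeded the 22 °C slope by 0.36 ± 0.03 log2 per h for LSM1A (SE; limma adjusted p = 2.15e-06), by 0.32 ± 0.04 for AT2G45810 (adjusted p = 9.69e-06) and by 0.26 ± 0.03 for AT3G58560 (adjusted p = 2.55e-05). Of all genes tested, 37% had a higher slope in the cold than at 22 °C past the same threshold, so this direction was common on these arrays. The 3 differences were larger than those of 91.5%, 88.0% and 82.1% of the genes. Over all genes the interquartile range of the slopes was 0.308 log2 per h at 22 °C and 0.035 to 0.048 in the cold series. The differences and their ranks therefore largely repeat the 22 °C slopes given below, and flat cold slopes were general on these arrays. Each of the 4 cold series taken alone also differed from 22 °C for each gene, by 0.34 to 0.38 for LSM1A, by 0.30 to 0.33 for AT2G45810 and by 0.23 to 0.27 for AT3G58560. These 4 contrasts share the same 22 °C series, so they are not independent of each other. Markers of other processes moved in the same fit. AUR1, the only cell division marker tested, had a difference of 0.65 (adjusted p = 1.72e-08) and a 22 °C slope of −0.66 log2 per h, both larger in size than those of the 3 genes. RCA had −0.08 (adjusted p = 0.043), which turned to 0.15 with anchored slopes, where the slope at the 95th percentile of a series counts as no decay, and LHCB4.1 had −0.03 and did not pass. The part of cell division in the difference of the 3 genes was not tested. In the contrasts of single cold series 35.8%, 36.7%, 35.9% and 36% of all genes passed in that direction for 6, 12, 24 and 36 h of cold.

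**Figure D2:**
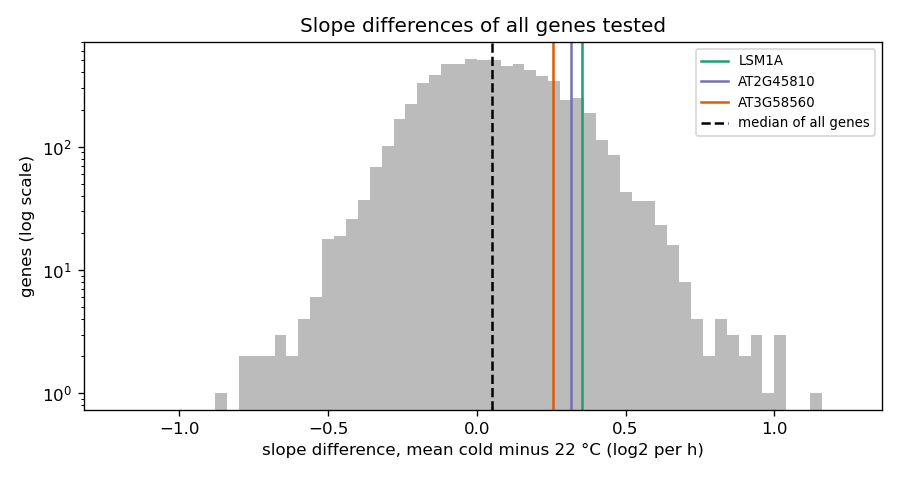
Number of genes (vertical log axis) by slope difference, mean cold minus 22 °C, in log2 per h (horizontal axis), for the 6962 genes tested. The lines of LSM1A (0.36), AT2G45810 (0.32) and AT3G58560 (0.26) stand in the right flank, above the median of all genes at 0.05.

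In the 22 °C series the slopes were −0.34 ± 0.03 log2 per h for LSM1A (limma adjusted p = 2.68e-06), −0.30 ± 0.04 for AT2G45810 (adjusted p = 1.08e-05) and −0.24 ± 0.03 for AT3G58560 (adjusted p = 4.05e-05), where 38.5% of all genes fell. The error of these slopes is pooled with the cold series and does not measure scatter at 22 °C alone. A fitted line with these slopes falls by 1 log2 unit in 2.96, 3.28 and 4.25 h, which are relative times and not half-lives. The slope was more negative than LSM1A's in 11.2% of the genes, than AT2G45810's in 14.2% and than AT3G58560's in 22.1%. The lines accounted for 98.4%, 96.7% and 97.8% of the variance over the 4 arrays. Centred on the median of all genes tested, the 22 °C slopes were −0.24, −0.20 and −0.13 and the differences 0.25, 0.22 and 0.16 for LSM1A, AT2G45810 and AT3G58560, all past the threshold.

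Over the first 4 h, the only cordycepin time besides 0 h that all series share, the change in the cold exceeded that at 22 °C by log2 1.445 ± 0.174 for LSM1A (limma adjusted p = 8.42e-04), 1.297 ± 0.197 for AT2G45810 (adjusted p = 0.0018) and 0.990 ± 0.143 for AT3G58560 (adjusted p = 0.00155). Here the 4 cold series' disagreement with each other is the error, and 34.2% of all genes passed in the same direction. LSM1A moved by −0.04, 0.25, −0.01 and −0.06 over these 4 h after 6, 12, 24 and 36 h of cold, against −1.41 at 22 °C.

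Within the cold, the slopes were near 0 and mostly positive. LSM1A had 0.005, 0.038, 0.013 and 0.011 log2 per h after 6, 12, 24 and 36 h of cold (SE 0.012 each), and the 12 h series passed (adjusted p = 0.0376), in which 11.3% of all genes rose. That call was lost without the 0 h array of this series (0.036), without its 12 h array (0.020), and, at 0.038, without the 8 h array of the 6 h series or the 4 h array of the 24 h series. It was also lost with no filter on low values (0.038, adjusted p = 0.0595), after centring on reference genes (0.020, adjusted p = 0.345) and with all 0 h arrays left out (0.036, adjusted p = 0.306). AT2G45810 had −0.005, 0.009, 0.025 and 0.020 (SE 0.013 each) and AT3G58560 −0.003, 0.022, 0.033 and 0.030 (SE 0.011 each), none past the threshold. After 6, 24 and 36 h of cold 4.55%, 0.129% and 0.0144% of all genes rose. The mean cold slope was 0.017 ± 0.006 for LSM1A (adjusted p = 0.0359), 0.012 ± 0.006 for AT2G45810 (adjusted p = 0.138) and 0.021 ± 0.006 for AT3G58560 (adjusted p = 0.0137), and 21.6% of all genes rose. Neither rise passed after centring on reference genes, where LSM1A had 0.001 and AT3G58560 0.005, or without the 0 h arrays. That of LSM1A was lost with no filter on low values too (0.017, adjusted p = 0.0555). With each of the 16 cold arrays left out in turn, the rise of LSM1A passed 5 times (0.011 to 0.020). That of AT3G58560 passed 13 times, the exceptions being the 12 h array of the 6 h series (0.015) and the 0 and 12 h arrays of the 24 h series (0.020 and 0.019). The sign of the cold slopes depends on which slope counts as no decay. Anchored slopes, lowered by construction, gave means of −0.030 for LSM1A, −0.035 for AT2G45810 and −0.027 for AT3G58560, each past the threshold as falling.

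No change of the cold slopes with cold duration passed the test. The 4 cold slopes ranged over 0.033, 0.030 and 0.035 log2 per h for LSM1A, AT2G45810 and AT3G58560 (F test in limma, adjusted p = 0.59, 0.702 and 0.477), where 2.77% of all genes passed. Their trend per 24 h of cold was −0.005 ± 0.012 for LSM1A, 0.020 ± 0.013 for AT2G45810 and 0.024 ± 0.012 for AT3G58560, and over all genes 0% passed upwards and 0.158% downwards. Not passing does not show that the slopes were equal.

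Before cordycepin the genes did not move together in the cold. LSM1A was higher on all 4 cold arrays than on the 22 °C array, by log2 0.28, 0.06, 0.41 and 0.30 after 6, 12, 24 and 36 h. AT2G45810 was lower on all 4, with differences of −0.31, −0.51, −0.53 and −0.49, and so was AT3G58560, with −0.50, −0.66, −0.63 and −0.54. In limma the mean difference was 0.26 ± 0.20 for LSM1A (adjusted p = 0.656), −0.46 ± 0.19 for AT2G45810 (adjusted p = 0.565) and −0.58 ± 0.17 for AT3G58560 (adjusted p = 0.48), so none passed. This test sets 4 arrays against 1, counts change with cold duration as error, and called 0.101% of all genes higher and 0% lower. Before adjustment, limma placed 330 genes higher and 288 lower at the 0.05 level, and AT3G58560 was one of those lower.

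The intercepts of the fitted lines, which use all 20 arrays, gave the same directions past the threshold. They differed by 0.32 ± 0.09 for LSM1A (limma adjusted p = 0.00593), by −0.38 ± 0.09 for AT2G45810 (adjusted p = 0.00342) and by −0.66 ± 0.09 for AT3G58560 (adjusted p = 2.34e-05). With intercepts 25.2% of all genes were higher and 37.3% lower in the cold, and their error comes from how far arrays stray from the lines, with no measure of differences between cultures. That scatter had an SD of 0.101, 0.105 and 0.096 for LSM1A, AT2G45810 and AT3G58560. Ordered by level before cordycepin, AT3G58560 was highest at 22 °C and its 4 cold arrays followed in the order 6, 36, 24 and 12 h, with neighbouring cold arrays closer than this SD. AT2G45810 was also highest at 22 °C, then at 6 h, and the 36, 12 and 24 h arrays were within the SD of each other. LSM1A was highest at 24 h, followed by 36, 6 and 12 h and then 22 °C, and the 36 and 6 h arrays, like the 12 h and 22 °C arrays, were within the SD of each other.

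**Figure D3:**
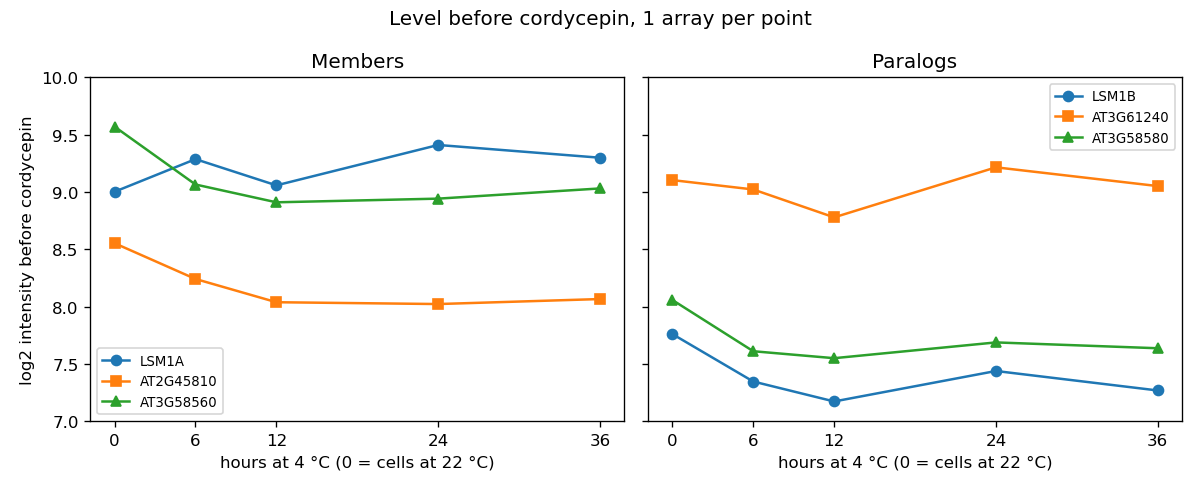
Log2 intensity before cordycepin (vertical axis) against hours at 4 °C (horizontal axis, 0 being cells at 22 °C), with the 3 genes on the left, LSM1B, AT3G61240 and AT3G58580 on the right and 1 array per point. LSM1A lies above its 22 °C value at every cold duration, and AT2G45810, AT3G58560, LSM1B and AT3G58580 lie below theirs.

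The closest relatives with a named probe set did not all follow their partners. LSM1B, the second gene for the LSM1 subunit, had a mean cold slope of 0.001 ± 0.007 and a 22 °C slope of −0.26 ± 0.04 log2 per h, a difference of 0.26 ± 0.04 (limma adjusted p = 1.82e-04). Its level before cordycepin, unlike that of LSM1A, was lower on all 4 cold arrays, with log2 7.35, 7.17, 7.44 and 7.27 after 6, 12, 24 and 36 h against 7.76 at 22 °C (−0.45 ± 0.21; adjusted p = 0.571). With intercepts the LSM1B difference was −0.21 ± 0.11 and did not pass (limma adjusted p = 0.104). Whether LSM1A and LSM1B differed from each other was not tested.

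AT3G61240, listed as a helicase gene of the same type as AT2G45810, had the smaller slope difference, 0.15 ± 0.04 (adjusted p = 0.0054). Centred on the median of all genes tested, it had 0.05 and did not pass. Its 22 °C course was 9.10, 9.41, 8.95 and 8.72 at 0, 0.5, 2 and 4 h, with the 0.5 h array above the start. AT3G58580, the CCR4-like gene that lies 1 annotated gene away from AT3G58560, fell in the cold on the mean of the 4 series, and none of these slopes passed alone. At 4 h of cordycepin 87.4%, 100.3%, 109.2% and 93.5% of its starting intensity was present after 6, 12, 24 and 36 h of cold. Its mean cold slope was −0.032 ± 0.008 (adjusted p = 0.00966), where 16.2% of all genes fell, and 71.4%, 78.5%, 80.7% and 78.0% of the starting intensity was left after 12 h of cordycepin in the 6, 12, 24 and 36 h cold series. At 22 °C it had 32.6% left at 4 h and a slope of −0.37 ± 0.05. The slope difference of AT3G58580 was 0.34 ± 0.05 (adjusted p = 4.80e-05), and with scaled slopes, where hours are rescaled so that all series have equal spread of slopes, it was 0.04 and did not pass (adjusted p = 0.258).

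Other decay factors were taken from lists of 80 Arabidopsis loci, of which 40 have a named probe set and 36 were tested. LSM1A, AT2G45810 and AT3G58560 are among them. Of the 36, 19 had a less negative slope in the cold, 7 a more negative one and 10 did not pass, with a median difference of 0.16 against 0.05 over all genes. Less negative stands here for a positive slope difference and more negative for a negative one, whatever the sign of the slopes themselves. Without the 3 genes the list had 16, 7 and 10 of 33 and a median of 0.04. Of all genes 37% were less negative and 21.5% more negative in the cold.

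Within the decapping list all 10 tested genes passed, 5 in each direction. This split became 5 less and 1 more negative with scaled slopes and also without the 0 h arrays, and 7 and 0 with anchored slopes. Anchoring raises the slope difference of every gene by the same amount. Shares of all genes under these other settings are not given here. LSM1A, LSM1B, AT2G45810, AT3G61240 and AT1G79090, listed as a PAT1 gene (0.25), were less negative in the cold. The ring subunit genes LSM3A (−0.21), LSM3B (−0.12), LSM6A (−0.16) and LSM6B (−0.13), whose products also belong to the nuclear ring, were more negative, as was AT4G14990 (−0.32), listed as a PAT1 relative. At 22 °C the LSM3 and LSM6 transcripts had slopes of 0.14 to 0.23 log2 per h, against −0.34 for LSM1A and −0.26 for LSM1B. The mean cold slopes of LSM3A, LSM3B, LSM6A and LSM6B were also positive, 0.016, 0.024, 0.014 and 0.014, and only that of LSM3B passed. These transcripts thus rose less in the cold than at 22 °C and did not fall on this scale. The LSM3 and LSM6 values depend on which slope counts as no decay. Anchored, the slope differences of LSM3A, LSM3B, LSM6A and LSM6B were 0.02, 0.11, 0.07 and 0.10, and the 22 °C slopes were −0.05, −0.13, −0.10 and −0.13. AT4G14990 had −0.09 on that scale and did not pass, and LSM1A and LSM1B had 0.58 and 0.49, past the threshold.

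In the deadenylation list 9 of 16 tested genes were less negative in the cold, 2 more negative and 5 did not pass. With scaled slopes 2 were less negative and 0 more negative, and with anchored slopes, which raise every difference, 15 and 1. The CAF1-like deadenylase loci AT5G10960 (0.39), AT2G32070 (0.38), AT1G06450 (0.33) and AT1G80780 (0.25) were among the 9 with AT3G58560, whereas another locus of that family, AT1G15920, had −0.32. AT1G02080, listed as the NOT1 scaffold, had −0.10, and the loci listed as NOT3 (AT5G18230, −0.007) and as a NOT9 gene (AT3G20800, −0.04) did not pass. AT5G35430, listed as NOT10 (0.24), and AT5G12980, listed as another NOT9 gene (0.16), were among the 9, as were the CCR4-like AT3G58580 (0.34) and AT1G02270 (0.34). The CCR4-like AT5G11350 (−0.03) and AT1G31500 (0.04) and the CAF1-like AT1G27820 (−0.04) did not pass. The mean cold slopes of AT1G15920 and AT1G02080 were positive, 0.026 and 0.008. With anchored slopes AT1G02080 turned to 0.13, and with scaled slopes the 4 CAF1-like loci had −0.04 to 0.07 and did not pass, where AT3G58560 had 0.12 and passed. In the exosome and SKI list 5 of 8 were less negative, RRP41 (0.24) and AT1G54440 (0.27) among them, and 0 were more negative. All 8 were less negative with anchored slopes, which raise every difference. With scaled slopes RRP41 had 0.03 and did not pass. RRP41L (0.04) and AT3G46960, listed as the SKI2 helicase (0.008), did not pass. Neither UPF3 (0.04) nor AT2G39260, listed as UPF2 (−0.08), factors of nonsense-mediated decay, passed. Over the matched 4 h both did, with log2 0.57 for UPF3 (limma adjusted p = 0.0171) and −0.57 for AT2G39260 (adjusted p = 0.03). The slope difference of AT2G39260 also passed as −0.14 after centring on reference genes and as −0.18 on the median of all genes, and with anchored slopes AT2G39260 had 0.15 and UPF3 0.27, both past the threshold. Without the 0 h arrays UPF3 had −0.16 and passed. Loci listed for the 5′ to 3′ exonucleases, and for poly(A) binding and Tudor-SN proteins, have no named probe set here.

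**Figure D4:**
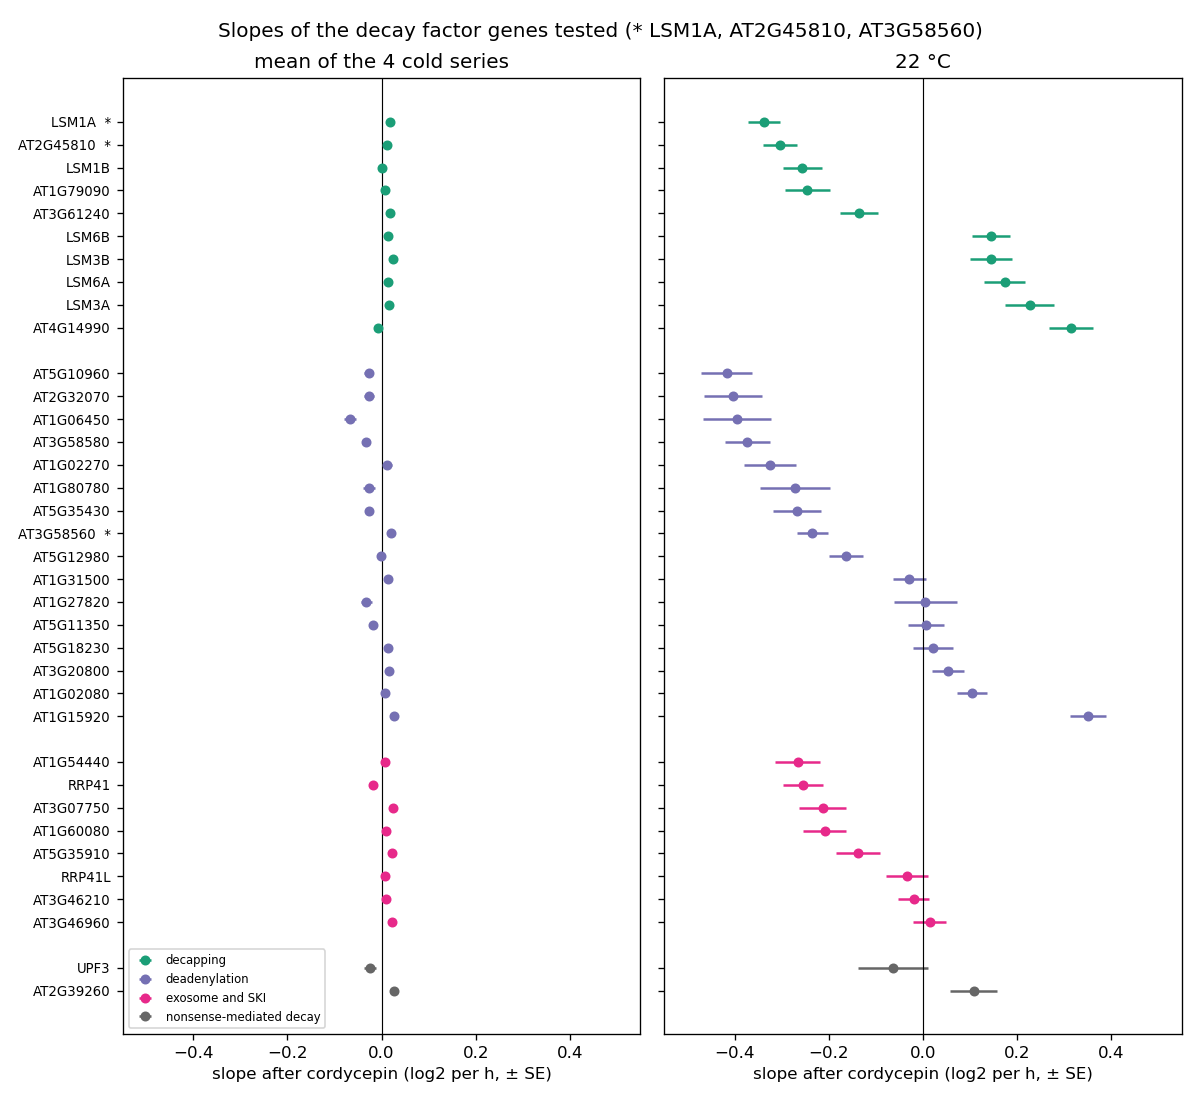
Slope after cordycepin in log2 per h with its SE (horizontal axis) for the 36 decay factor genes tested, as the mean of the 4 cold series (left) and at 22 °C (right), coloured by list. The cold slopes lie between −0.07 and 0.03, and the 22 °C slopes between −0.42 and 0.35.

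Levels before cordycepin did not pass for any of the 36 genes, the median difference being −0.13 against −0.08 over all genes. That test called only 0.101% of all genes higher and 0% lower, so the absence of calls says nothing particular about decay factors. AT1G06450 had 1.29 and AT1G54440 −0.69, the highest and the lowest of the list.

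Across the 20 arrays, which share the fall at 22 °C and the authors' normalisation, Pearson's r was 0.72 between LSM1A and AT2G45810, 0.64 between AT2G45810 and AT3G58560 and 0.21 between LSM1A and AT3G58560. On the 16 cold arrays alone these were 0.31, 0.43 and 0.47. The genes most like LSM1A over the 20 arrays were AT2G43630 (r = 0.98), AT5G03905 (0.97) and AT4G05060 (0.97), and on the cold arrays alone they had 0.58, 0.60 and 0.46. Those most like AT2G45810 were AT2G47500 (0.95), CAF1 (AT2G20020; 0.94), which is a chloroplast splicing factor and not the deadenylase of that name, and AT4G35335 (0.93). Those most like AT3G58560 were IYO (0.89), which encodes the RNA polymerase II partner MINIYO, AT3G26370 (0.89) and AT5G40640 (0.88), and on the cold arrays alone they had 0.77, 0.79 and 0.85.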

How the data were processed

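The deposited values are probe set intensities on a linear scale, which the authors made with RMA in the affy package, per the submitters' processing notes. Versions and the genome build are not given in the sources used here. Log2 was taken before any fit. Of 22810 probe sets, 13513 have 1 gene in the platform table, 503 several, and 8794 are not named there. 13436 of the 13513 matched the TAIR10.1 gene table. A probe set was kept if at least 2 of 20 arrays reached the table median intensity, 61.4, and the brightest stood for each gene, which left 6962 genes. All 3 members passed on all 20 arrays. The median intensity of an array was 50.3 to 68.6. Precision is limited by how few arrays there are.

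limma 3.58.1 in R 4.3.3 (lmFit, eBayes with trend) fitted a straight line in hours of cordycepin to each series, leaving 10 residual degrees of freedom over the 20 arrays. Array scatter around these lines is the error, and since nothing says that arrays came from separate cultures, it may be technical. This scatter is pooled over all series, so the 22 °C arrays are assumed to stray from their line like the cold ones. Levels at 0 h (3 residual degrees of freedom, the lone 22 °C array assumed to vary like the cold ones) and the change over 4 h (3, all from the cold series) had fits of their own. Two-sided p-values were adjusted over all genes by Benjamini-Hochberg, and 0.05 was the threshold. The fits were tested on simulated data. Tables were made with Python 3.11.15 and pandas 2.3.3. Members, lists and tests were chosen with earlier results of these data known. Named genes are the members, their closest named relatives, tested genes of the decay lists and, per member, the 3 genes with the highest Pearson r over the 20 arrays.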

Additional observations from a re-analysis of the deposited data

Results flagged for a closer look

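The change over hours after cordycepin differed between cold and 22 °C cells for each of the 3 genes, by the interaction of series and hours in limma. The slope difference was 0.355 log2 per h for LSM1A, 0.317 for AT2G45810 and 0.256 for AT3G58560. For each gene every cold series taken alone gave this sign, but all of them were set against the same 22 °C series. Of all genes tested, 37% passed in that direction.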

How the results depend on the processing

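For LSM1A, AT2G45810 and AT3G58560, the 22 °C slope and the slope difference kept their direction and stayed past the threshold under every alternative run. These changed the filter (none, or means above the 60th percentile), dropped the variance trend, centred arrays on reference genes or on the median of all genes tested (added after seeing the data), averaged probe sets, anchored the slopes (95th percentile taken as no decay), dropped the 0 h arrays, left out each array in turn and, for the difference, scaled slopes and the change over 4 h (added). With 1 array left out, the difference ranged from 0.323 to 0.406 for LSM1A, 0.299 to 0.421 for AT2G45810 and 0.219 to 0.282 for AT3G58560. Differences were largest with anchored slopes, 0.584, 0.546 and 0.485, and smallest apart from scaled slopes when centred on the median of all genes, 0.255, 0.216 and 0.155. Level differences before cordycepin did not pass except with intercepts of the lines (0.323 for LSM1A, −0.377 for AT2G45810, −0.656 for AT3G58560), which use all 20 arrays. The mean cold slope turned to −0.0304 for LSM1A, −0.0352 for AT2G45810 and −0.0269 for AT3G58560 with anchored slopes, which lower every slope by construction, and to −0.00345 for AT2G45810 with reference-gene centring. The 3 anchored values passed the threshold as falling, and the reference-centred one did not. The 12 h cold slope of LSM1A turned to −0.0172 with anchored slopes. Without 1 cold array the mean cold slope ran from 0.0105 to 0.0205 for LSM1A. The count of decay factors less negative in the cold was 19, and 32 with anchored slopes and 11 with scaled slopes. The count more negative was 7, and 1 with either of these, 3 without the 0 h arrays and 11 when centred on the median of all genes. Anchoring raises the difference of every gene by the same amount, and shares of all genes under these settings are not given here. No paired analysis was possible because each condition has 1 array and the labels give no replicate numbers.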
